A study of Mus musculus with 15 samples.

Results

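The MHC class II antigen presentation pathway was followed in mouse whole blood through 10 genes: H2-Aa, H2-Ab1, H2-Eb1, H2-DMa, H2-DMb1, H2-DMb2, H2-Oa, H2-Ob, Ciita and Cd74. Every probe set annotated with one of these symbols was taken, whatever its value, which gave 22 of the 45037 non-control probe sets on the array. Of these, 19 were annotated with 1 gene and 3 with several, and 17 were bright enough to be tested. Of the 10 genes, 9 were among the 18193 genes on the array with a probe set of their own. The remaining 5 probe sets lay at or near the floor on most arrays and were not tested: the only one for H2-Oa, and 1 each of H2-Aa, H2-DMa, Ciita and the one shared by Gm20506 and H2-Ob. H2-DMb1 had no probe set of its own and was read through 2 that it shares with H2-DMb2.

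Blood RNA was profiled on 15 arrays, 1 per mouse, in groups of 5 that received vehicle, ABBV-075 at 1 mg/kg or ABBV-075 at 5 mg/kg 6 h before collection. ABBV-075, also called mivebresib, inhibits BET proteins, readers of histone acetylation that help start transcription. The series asked which blood transcripts respond to the compound. Strain, sex, age, vehicle composition and dosing route are not given in the sources used here, and no genetic modification is stated for any group.

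MHC class II molecules display peptides from endocytosed protein to CD4+ T cells. An α and a β chain assemble on the invariant chain Cd74, cathepsins degrade Cd74 to a short peptide called CLIP, and the H2-DM heterodimer exchanges CLIP for antigenic peptide, while H2-O restrains H2-DM. In blood the pathway is known mainly from B cells, with smaller numbers of dendritic cells and some monocytes, and the transactivator Ciita, recruited to the X and Y boxes of class II promoters by RFX, CREB and NF-Y, switches it on.

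Promoters are shown because H2-Aa, H2-Ob and H2-DMb2 1419744_at moved with most other members across mice, with median r over the other member probe sets of 0.68 to 0.81 for H2-Aa, 0.69 for H2-Ob and 0.67 for H2-DMb2 1419744_at (deviations from group means over 15 arrays, which share their scaling). These medians take in other probe sets of the same gene. H2-DMb2 1443686_at and 1443687_x_at, often at the floor, had 0.26 and 0.30. H2-Eb1, at 0.04, did not, and H2-DMb1 has no probe set of its own; both are shown for comparison. RefSeq windows of 300 bases (250 before the start site and 50 after, build GRCm38.p6), matched by symbol, were counted for 7 member genes, in 8 windows. H2-Ab1, Ciita and Cd74 were not matched. The 5 windows below lie on chromosome 17. Those of H2-Eb1 (chr17:34305617-34305916), H2-DMb2 (chr17:34144999-34145298), H2-DMb1 (chr17:34152941-34153240) and H2-Ob (chr17:34238655-34238954) are on the plus strand, and that of H2-Aa (chr17:34287774-34288073) is on the minus strand. Each is written 5′ to 3′ along its gene, and capitals mark matches on either strand to the Y box core ATTGG or to the X box parts GCAACNG and ACNGATG.
H2-Eb1: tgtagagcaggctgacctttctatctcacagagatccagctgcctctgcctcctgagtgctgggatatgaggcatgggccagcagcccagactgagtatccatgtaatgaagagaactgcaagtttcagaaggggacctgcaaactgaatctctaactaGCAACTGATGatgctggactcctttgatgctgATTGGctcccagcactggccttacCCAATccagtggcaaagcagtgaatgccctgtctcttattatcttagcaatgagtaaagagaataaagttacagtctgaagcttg
H2-DMb2: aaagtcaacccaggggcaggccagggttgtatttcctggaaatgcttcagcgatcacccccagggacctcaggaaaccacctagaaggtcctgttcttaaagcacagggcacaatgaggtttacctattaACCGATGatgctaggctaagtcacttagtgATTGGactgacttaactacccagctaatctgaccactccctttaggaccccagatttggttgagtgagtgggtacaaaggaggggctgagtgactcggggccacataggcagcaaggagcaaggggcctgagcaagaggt
H2-DMb1: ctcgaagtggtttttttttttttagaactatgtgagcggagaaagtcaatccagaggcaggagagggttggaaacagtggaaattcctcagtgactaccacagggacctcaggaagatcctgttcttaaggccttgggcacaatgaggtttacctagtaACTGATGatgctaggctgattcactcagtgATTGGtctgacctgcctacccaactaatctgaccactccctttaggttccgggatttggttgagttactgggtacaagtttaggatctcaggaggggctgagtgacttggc
H2-Ob: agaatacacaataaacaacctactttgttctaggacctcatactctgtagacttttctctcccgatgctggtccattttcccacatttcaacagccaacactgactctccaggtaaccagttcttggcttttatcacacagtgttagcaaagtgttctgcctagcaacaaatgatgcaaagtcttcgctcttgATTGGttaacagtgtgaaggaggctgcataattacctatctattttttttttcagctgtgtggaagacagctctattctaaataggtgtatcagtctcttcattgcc
H2-Aa: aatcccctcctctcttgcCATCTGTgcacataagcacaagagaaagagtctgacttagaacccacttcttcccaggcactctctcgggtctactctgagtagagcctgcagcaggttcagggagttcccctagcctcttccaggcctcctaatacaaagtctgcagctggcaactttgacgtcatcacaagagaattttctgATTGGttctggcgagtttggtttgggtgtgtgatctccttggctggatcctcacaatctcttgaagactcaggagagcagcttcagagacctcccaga

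The Y box core was present in 7 of the 8 member windows counted, against 37.4% of all 32851 windows of the same length. An X box part was found in 5 member windows, against 21.2% of all windows, and 5 held both motifs, against 7.81%. The X parts GCAACNG and ACNGATG can overlap, as they do in H2-Eb1. On the same strand, ACNGATG began 30 bases before the Y box core in H2-DMb1 and H2-DMb2, 29 bases before it in H2-Eb1 and 94 bases before it in H2-Oa. In H2-Aa the only match to the X letters lay on the other strand, 232 bases before the start site, far from the Y box core at 48 bases. The counts above take in matches at any spacing and on either strand. H2-Ob held the Y box core 57 bases before its start site and no exact match to these X letters. The H2-DMb1 and H2-DMb2 windows shared 84.2% identity over 247 aligned bases, and their probe sets are partly shared too. A match of letters is a description and not a binding site.

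By RefSeq gene order on chromosome 17, the class II region runs H2-Oa, Brd2, H2-DMa, H2-DMb2, H2-DMb1, Psmb9, Tap1, Psmb8, Tap2, H2-Ob, H2-Ab1, H2-Aa, H2-Eb1, while Ciita is on chromosome 16 and Cd74 on chromosome 18.

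The arrays were not on a common scale as deposited: median intensity ran from 3.61 to 25.4, while the mean of the Cre spike-in ran from 11513 to 16096. Values were therefore quantile normalised and expressed as log2 intensity with a floor of 4, that is an intensity of 16, at which 52.7% of all values lay. A probe set was tested where it lay above the floor on at least 5 arrays, which left 24273. Pairwise correlations between arrays were 0.703 to 0.923, across probe sets that are not independent. Some measures differed between groups in the same libraries. The mean of 20 monocyte markers was 6.29 ± 0.13 at 5 mg/kg and 7.30 ± 0.21 with vehicle (SD, n = 5 each; exact two-sided permutation p = 0.00794, adjusted p = 0.0357 over 18 tests), with no overlap. The mean of 11 dendritic cell markers was 6.59 ± 0.19 at 5 mg/kg and 7.03 ± 0.11 with vehicle (exact permutation, adjusted p = 0.0357). The 18S ribosomal RNA signal was 9.42 ± 0.42 at 5 mg/kg and 11.19 ± 0.94 with vehicle (exact permutation, adjusted p = 0.0357). Unlike the marker means, the 18S signal is the log2 of deposited intensities that were not normalised between arrays. The mean of 17 B cell markers was 7.19 ± 0.33 at 5 mg/kg and 6.87 ± 0.45 with vehicle, overlapping (exact permutation p = 0.214, adjusted p = 0.321), and was 6.58 ± 0.52 at 1 mg/kg (exact permutation p = 0.405 against vehicle). In whole blood, fewer cells of a type and less RNA per cell cannot be told apart.

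In vehicle blood the pathway was among the brighter signals of the array. Cd74 averaged 10.64 on the log2 scale, above 98.6% of tested probe sets, the brightest H2-Aa probe set 9.86 (97.8%), H2-Ab1 9.15 (96.5%) and H2-Eb1 9.0 (96.1%). H2-Ob averaged 7.27 (87.3%), H2-DMb2 7.08 (85.3%), Ciita 6.40 (75.0%) and H2-DMa 6.36 (74.4%). These ranks place each probe set among all others and do not compare the abundance of different transcripts, because probe sets hybridise with unequal efficiency.

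Among the 17 tested member probe sets, 0 passed an adjusted p of 0.05 in limma at 5 mg/kg against vehicle, where 0.136% of all tested probe sets passed. Of the 17, 11 were higher (49.2% of the table was) and 6 lower, with a median log2 fold change of 0.07 and a range of -1.39 to 0.70, and the median of all tested probe sets was -0.0066. An unadjusted p under 0.05 was reached by 2 of the 17, H2-Eb1 and H2-Ob, against 7.96% of the table, and the groups overlapped for all 17 (2.44% of the table did not overlap). At 1 mg/kg against vehicle 0 of 17 passed, against 0.00824% of the table, and 16 of 17 were lower (52.7% of the table was), with a median of -0.63 beside -0.02 for all tested probe sets. That count was 13 of 17 without 1 mg/kg replicate 5, and the median was -0.36 without that mouse and -0.32 without vehicle replicate 2. Other measures were lower in the same 1 mg/kg mice. The dendritic cell marker mean was 6.67 ± 0.21 at 1 mg/kg and 7.03 ± 0.11 with vehicle, with no overlap (SD, n = 5 each; exact two-sided permutation, adjusted p = 0.0357 over 18 tests). The monocyte marker mean was 6.69 ± 0.25 at 1 mg/kg and 7.30 ± 0.21 with vehicle (exact permutation, adjusted p = 0.0571), with 19 of 20 markers lower, and the 18S signal was 9.97 ± 0.43 at 1 mg/kg and 11.19 ± 0.94 with vehicle (exact permutation, adjusted p = 0.119). Of the 17 B cell markers 14 were lower at 1 mg/kg. So were 10 of 11 T cell, 9 of 9 NK cell, 10 of 10 platelet, 6 of 7 erythroid and 7 of 11 neutrophil markers. The means of these lists did not pass (exact permutation, adjusted p 0.163 to 0.881). The part of all these measures in the member values was not tested. Among the members at 1 mg/kg, 2 of the 17 had an unadjusted p under 0.05 (5.8% of the table) and 0 had groups apart (0.865% of the table). Between the doses, 5 mg/kg against 1 mg/kg, 0 of 17 passed, as for the whole table (0%). Of the 17, 13 were higher at 5 mg/kg (50% of the table was), with a median of 0.75 that was 0.36 without 1 mg/kg replicate 5, and 6 had an unadjusted p under 0.05 (8.66% of the table). Between the same groups 16 of 17 B cell markers were higher, with a median of 0.66, and 7 had an unadjusted limma p under 0.05. All 11 tested T cell markers were higher too, with a median of 0.60 and 6 under that p. With the B cell marker mean as a covariate in limma, the member median between the doses was -0.07, with 6 of 17 higher. The part of B and T cells in the member values was not tested. The 3 comparisons share arrays and are not independent of each other. The members were noisier than most of the array: the median standard error of their log2 fold changes was 0.44, against 0.28 for all tested probe sets.

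**Figure D1:**
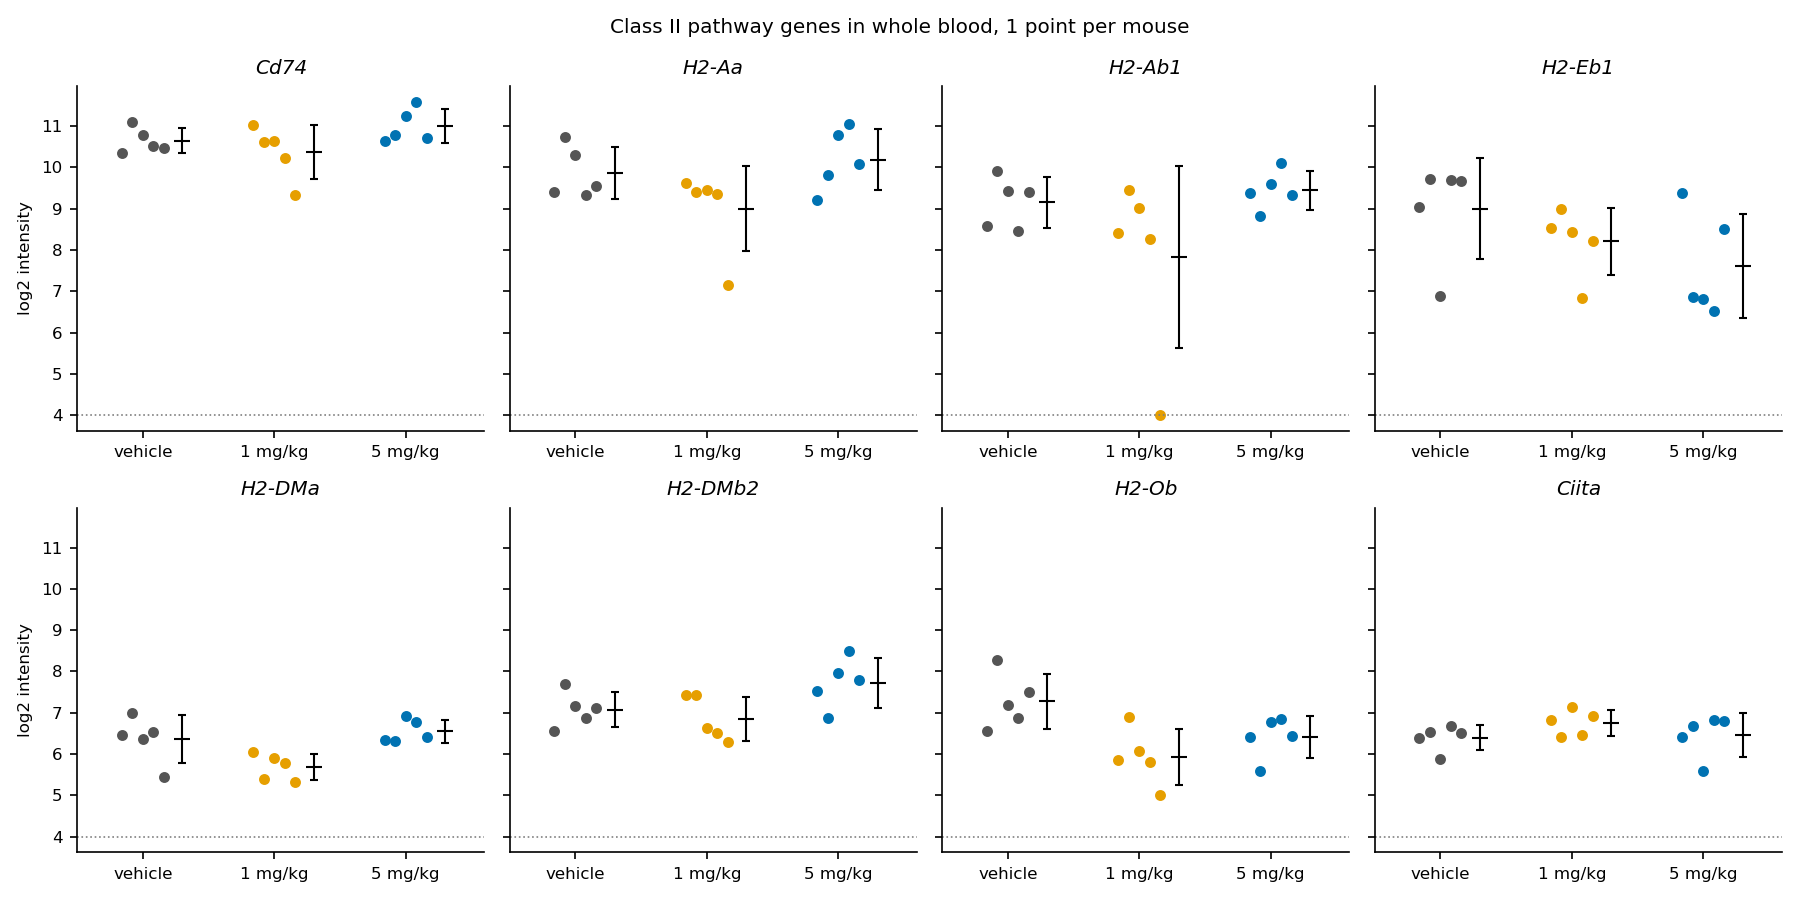
Normalised log2 intensity (y axis) of 8 member genes, each by its brightest tested probe set, in 3 groups of 5 mice (x axis). Each point is a mouse, the bar and whiskers beside them are the mean ± SD, and the dotted line is the floor of 4. All groups overlap except H2-DMa at 5 mg/kg against 1 mg/kg, and the lowest 1 mg/kg points of H2-Aa and H2-Ab1 belong to the same mouse.

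**Figure D2:**
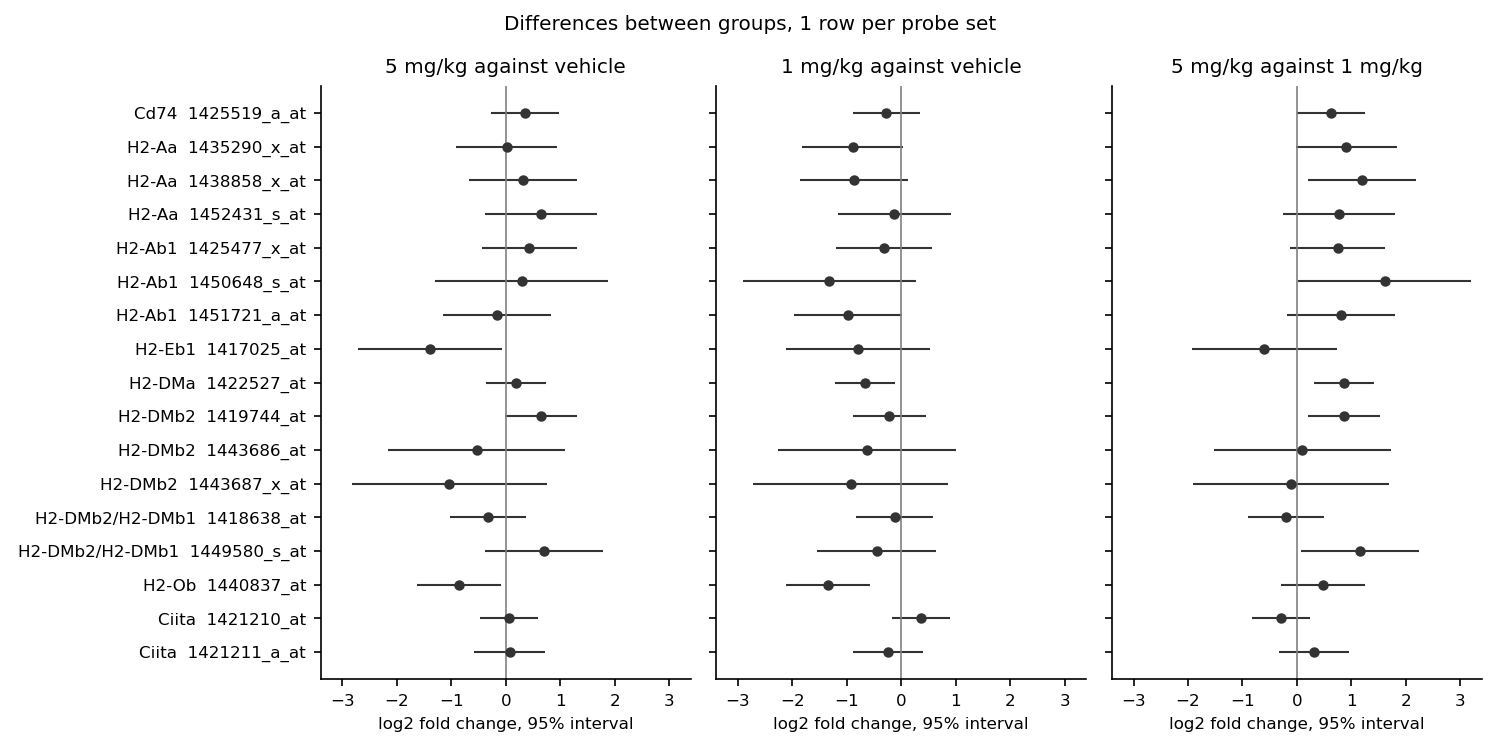
Log2 fold change (x axis) with its 95% interval from limma for the 17 tested member probe sets (rows, grouped by role), in 3 panels for the 3 comparisons. At 5 mg/kg against vehicle the points lie on both sides of 0, at 1 mg/kg against vehicle 16 of 17 lie below 0, and no probe set passed an adjusted p of 0.05.

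H2-Aa encodes the α chain of the A molecule, the main class II product of mice. Its brightest probe set, 1438858_x_at, read 9.41, 10.74, 10.30, 9.33 and 9.54 in the vehicle mice, 9.62, 9.41, 9.45, 9.36 and 7.16 at 1 mg/kg, and 9.22, 9.81, 10.79, 11.04 and 10.09 at 5 mg/kg. The 1 mg/kg group held 4 close values and 1 far below all other mice, and the 5 mg/kg values spanned the vehicle range and slightly beyond. The difference was 0.32 ± 0.47 (SE) at 5 mg/kg against vehicle, with a 95% interval of -0.67 to 1.32 (limma, adjusted p = 0.931), and 1.19 ± 0.47 at 5 mg/kg against 1 mg/kg (adjusted p = 0.497). The other tested H2-Aa probe sets gave 0.02 and 0.65 at 5 mg/kg and -0.89 and -0.13 at 1 mg/kg, each against vehicle.

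H2-Ab1 encodes the matching β chain. Probe set 1450648_s_at read 8.57, 9.90, 9.43, 8.46 and 9.40 with vehicle, 8.42, 9.46, 9.02, 8.26 and 4.00 at 1 mg/kg, and 9.37, 8.82, 9.59, 10.11 and 9.32 at 5 mg/kg. The mouse at the floor was the same 1 mg/kg mouse, replicate 5, that was lowest for H2-Aa, and it was also lowest for the B cell markers, at 5.75. H2-Ab1 differed by 0.29 ± 0.75 at 5 mg/kg and by -1.32 ± 0.75 at 1 mg/kg, each against vehicle (limma, adjusted p = 0.97 and 0.878). Without that mouse the difference at 1 mg/kg against vehicle was -0.36 for this probe set, -0.40 for H2-Aa 1438858_x_at and -0.01 for Cd74, and the difference between the doses was 0.65 for H2-Ab1 and 0.72 for H2-Aa. Its other probe sets, 1425477_x_at and 1451721_a_at, stayed above the floor in that mouse, at 5.45 and 5.77, and disagreed in sign at 5 mg/kg against vehicle, at 0.44 and -0.16.

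H2-Eb1, the β chain of the E molecule, fell into separate ranges rather than around a group mean. It read 9.03, 9.72, 6.88, 9.69 and 9.68 with vehicle, 8.54, 9.0, 8.44, 6.84 and 8.21 at 1 mg/kg, and 9.38, 6.86, 6.81, 6.52 and 8.50 at 5 mg/kg. No mouse lay between 6.88 and 8.21, and the low range held 1 vehicle mouse, 1 mouse at 1 mg/kg and 3 mice at 5 mg/kg. Its difference at 5 mg/kg against vehicle was the most negative of the 17, at -1.39 ± 0.63 (95% interval -2.72 to -0.06), with overlapping groups and an unadjusted limma p of 0.0417 that did not survive adjustment (adjusted p = 0.598). The 5 mg/kg mice with H2-Eb1 at 6.81 and 6.52 had the highest H2-Aa of their group, 10.79 and 11.04.

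H2-Ea, the α chain that pairs with H2-Eb1 and that some laboratory strains do not express, is not a member but is shown beside it. Its brightest probe set, 1422892_s_at, read 8.90, 9.82, 4.14, 8.12 and 8.22 with vehicle, 4.40, 4.00, 4.00, 4.00 and 7.35 at 1 mg/kg, and 7.77, 4.00, 5.94, 6.06 and 4.00 at 5 mg/kg. The signal was above 7 in 4 vehicle mice, 1 mouse at 1 mg/kg and 1 at 5 mg/kg, and it lay at the floor in 0 vehicle mice, 3 mice at 1 mg/kg and 2 at 5 mg/kg. The vehicle mouse with low H2-Eb1 was also the one with low H2-Ea, at 4.14. In the treated mice the genes were often not low together. Where H2-Ea lay at the floor, H2-Eb1 was 9.0, 8.44 and 6.84 at 1 mg/kg and 6.86 and 8.50 at 5 mg/kg. The 5 mg/kg mice with H2-Ea at 5.94 and 6.06 had H2-Eb1 at 6.81 and 6.52. H2-Ea differed by -2.29 ± 0.98 at 5 mg/kg and by -3.09 ± 0.98 at 1 mg/kg, each against vehicle (limma, adjusted p = 0.56 and 0.726). A second H2-Ea probe set, 1422891_at, gave -2.27 ± 0.77 and -2.81 ± 0.77 (adjusted p = 0.379 and 0.549), whereas the dim 1426202_at gave 0.25 and -0.11. Any part of the haplotype or strain of the mice in these values was not tested.

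**Figure D3:**
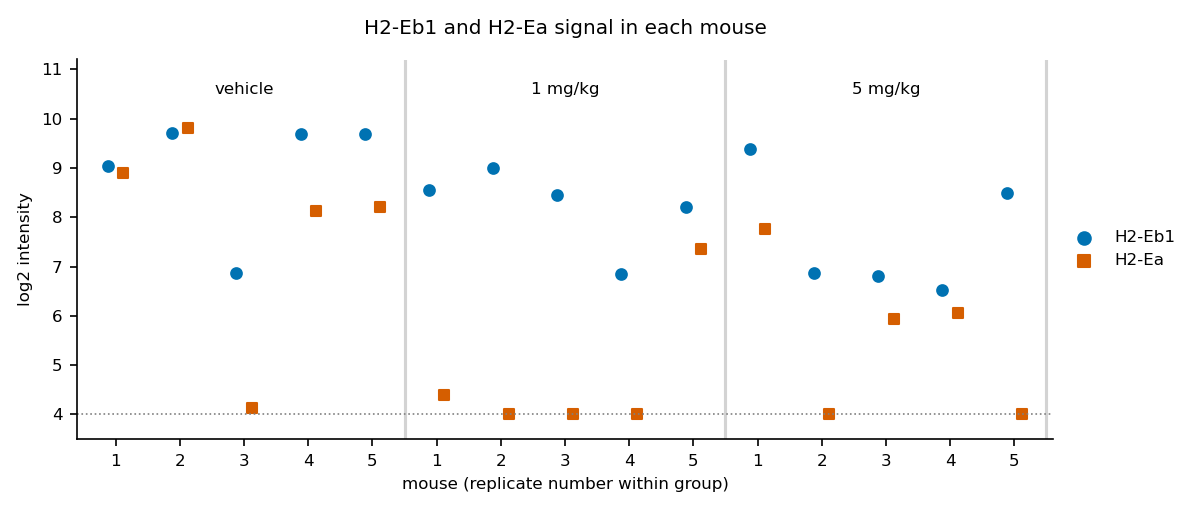
Log2 intensity (y axis) of H2-Eb1 (circles) and H2-Ea (squares) in each of 15 mice (x axis, replicate numbers within vehicle, 1 mg/kg and 5 mg/kg), with the floor of 4 dotted. H2-Eb1 lies either at 6.88 and below or at 8.21 and above, and H2-Ea is at or near the floor in mice of every group.

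Cd74, the invariant chain, was the brightest member. It read 10.34, 11.09, 10.78, 10.52 and 10.47 with vehicle, 11.02, 10.62, 10.64, 10.23 and 9.32 at 1 mg/kg, and 10.63, 10.78, 11.24, 11.59 and 10.72 at 5 mg/kg. The 5 mg/kg mice overlapped both other groups, and the lowest value was again 1 mg/kg replicate 5. Cd74 differed by 0.35 ± 0.29 at 5 mg/kg against vehicle, with a 95% interval of -0.27 to 0.97 (limma, adjusted p = 0.843), by -0.27 ± 0.29 at 1 mg/kg against vehicle and by 0.62 ± 0.29 between the doses.

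H2-DMa, the α chain of the H2-DM heterodimer that catalyses peptide exchange, differed most clearly between the doses. It read 6.46, 7.00, 6.38, 6.54 and 5.43 with vehicle, 6.05, 5.39, 5.90, 5.78 and 5.33 at 1 mg/kg, and 6.34, 6.31, 6.92, 6.78 and 6.42 at 5 mg/kg. All 5 mice at 5 mg/kg lay above all 5 at 1 mg/kg, the only member probe set of 17 for which any groups were apart (1.27% of the table was in that comparison). The difference between the doses was 0.87 ± 0.26, or 1.82-fold (95% interval 0.31 to 1.42 on the log2 scale), and its adjusted limma p of 0.415 was the smallest of any member there. Against vehicle, H2-DMa differed by 0.19 ± 0.26 at 5 mg/kg and by -0.67 ± 0.26 at 1 mg/kg (adjusted p = 0.922 and 0.828).

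H2-DMb2, a β chain of H2-DM, read 6.55, 7.69, 7.16, 6.87 and 7.12 with vehicle, 7.42, 7.43, 6.63, 6.51 and 6.30 at 1 mg/kg, and 7.52, 6.87, 7.96, 8.49 and 7.79 at 5 mg/kg by probe set 1419744_at. The 5 mg/kg mice tended to the top of the range, but 2 of them, at 7.52 and 6.87, lay within the vehicle range. The differences were 0.65 ± 0.31 at 5 mg/kg against vehicle and 0.86 ± 0.31 between the doses (limma, adjusted p = 0.653 and 0.477). Probe set 1449580_s_at, shared by H2-DMb2 and H2-DMb1, moved likewise, by 0.70 ± 0.51 and 1.15 ± 0.51. Probe sets 1443686_at and 1443687_x_at, also annotated H2-DMb2, were instead above the floor on 6 of 15 arrays each and reached 7.22 and 8.18 in vehicle replicate 2, so that probe sets of this gene disagreed.

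H2-Ob, the β chain of the H2-O heterodimer and a product mainly of B cells, was the member whose signal was lowest relative to vehicle at 1 mg/kg. It read 6.55, 8.27, 7.19, 6.87 and 7.49 with vehicle, 5.87, 6.89, 6.07, 5.82 and 5.01 at 1 mg/kg, and 6.41, 5.59, 6.79, 6.86 and 6.44 at 5 mg/kg. Below every vehicle mouse lay 4 mice at 1 mg/kg and 3 mice at 5 mg/kg, and the groups overlapped. H2-Ob differed by -0.86 ± 0.36 at 5 mg/kg (95% interval -1.63 to -0.09) and by -1.34 ± 0.36 at 1 mg/kg (-2.12 to -0.57), each against vehicle, with unadjusted limma p of 0.0315 and 0.00197 and adjusted p of 0.553 and 0.531. The dim probe set shared with Gm20506 lay above the floor on 3 vehicle arrays, 0 at 1 mg/kg and 1 at 5 mg/kg. H2-Oa, the α chain, was above the floor on 2 vehicle arrays, 1 array at 1 mg/kg and 1 at 5 mg/kg, so its level was not measured here.

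Ciita, the transactivator of the family, was moderate in level. Probe set 1421210_at read 6.38, 6.54, 5.88, 6.67 and 6.51 with vehicle, 6.83, 6.41, 7.15, 6.47 and 6.92 at 1 mg/kg, and 6.41, 6.68, 5.58, 6.83 and 6.81 at 5 mg/kg. The groups overlapped throughout, and it was the only one of the 17 that was higher at 1 mg/kg than with vehicle, by 0.36 ± 0.25 (limma, adjusted p = 0.898). At 5 mg/kg against vehicle it differed by 0.07 ± 0.25, with a 95% interval of -0.47 to 0.60, and the dimmer 1421211_a_at by 0.07 ± 0.31.

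Of the members, H2-Aa, H2-Ab1, Cd74, H2-Ob and some H2-DMb2 probe sets followed the B cell markers from mouse to mouse. With each value taken as its deviation from the group mean over 15 arrays, 10 of the 17 probe sets correlated with the mean of the 17 B cell markers at an adjusted p under 0.05 for both Pearson and Spearman coefficients (51 relations; permutation within groups). The lowest coefficients among these 10 were r = 0.747 and rho = 0.775, and 0.618% of the 24273 tested probe sets reached both. Several of the 10 are probe sets of the same gene, H2-Aa or H2-Ab1. Those of H2-Eb1 (r = 0.03), H2-DMa (r = 0.44) and Ciita did not pass. Correlation with the T cell marker mean was not tested. The highest rho, 0.925, was that of H2-Ab1 1450648_s_at (r = 0.834). H2-Ob had the highest Pearson coefficient, with r = 0.92 and rho = 0.86 (permutation p = 6e-05 and 0.00013, adjusted p = 0.00153 and 0.00204), and r = 0.86 without the 2 mice farthest from the median. Cd74 had r = 0.87 and rho = 0.89 (permutation p = 0.00062 and 0.00024, adjusted p = 0.00481 and 0.00245) and r = 0.79 without those mice. H2-Aa 1435290_x_at had r = 0.91 and rho = 0.92 (permutation p = 0.00023 and 0.0001, adjusted p = 0.00255 and 0.00204), and r = 0.86 without them. Ciita 1421210_at had r = -0.12 and rho = -0.10 (permutation p = 0.657 and 0.743). No member reached that threshold with the monocyte marker mean. With the dendritic cell marker mean 1 of the 17 did, H2-Eb1, with r = 0.76 and rho = 0.78 (permutation within groups, adjusted p = 0.00663 and 0.0121). Without the 2 mice farthest from the median of that mean, r was 0.70. The values of H2-Eb1 lay in separate ranges, and these coefficients pool the mice of both. Within the 10 mice of its upper range, H2-Eb1 had r = 0.48 and rho = 0.455 with the dendritic cell marker mean (exact permutation within groups, p = 0.149 and 0.241). This test was chosen after the values were seen. Its mice were selected on H2-Eb1 itself, which narrows the range, so it cannot decide whether the measures move together. The 5 mice of the lower range were too few to test.

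**Figure D4:**
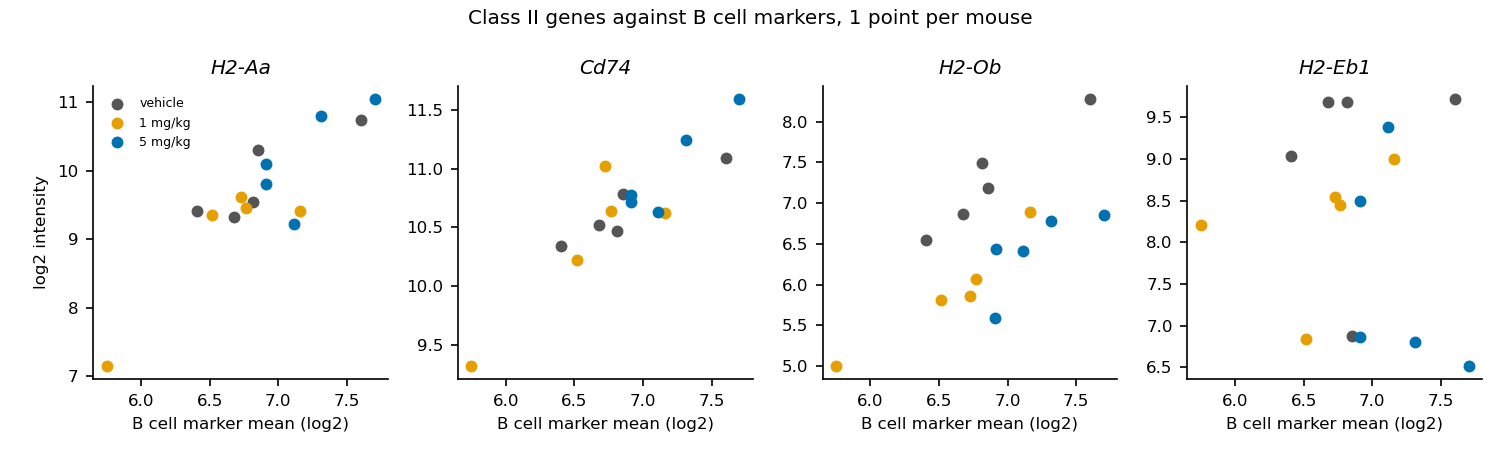
Log2 intensity (y axis) of H2-Aa, Cd74, H2-Ob and H2-Eb1 against the mean log2 value of 17 B cell markers (x axis), each point 1 of 15 mice, coloured by group. H2-Aa, Cd74 and H2-Ob rise along the x axis, the H2-Ob points of both doses lie below the vehicle points at a like B cell level, and H2-Eb1 splits into separate ranges.

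With the B cell marker mean added to the limma model as a covariate, H2-Ob fell at 5 mg/kg against vehicle by 1.27 on the log2 scale (-1.27 ± 0.20, 95% interval -1.70 to -0.84, adjusted p = 0.0199), among 0.148% of the table that passed. It was 1 of 17 member probe sets past the threshold in that fit, and at 1 mg/kg its difference was -0.97 ± 0.20 (adjusted p = 0.301, 0% of the table passed). Its call at 5 mg/kg held in 10 of 15 fits that left out a mouse (-1.39 to -1.13, adjusted p 0.0179 to 0.174) and was lost without vehicle replicate 2, 3 or 5 or 5 mg/kg replicate 1 or 2. With the monocyte marker mean as the covariate the difference was 0.04, and that mean did not overlap between these groups, so the fit cannot separate it from dose. The B cell markers Spib, a transcription factor, and Ms4a1, the CD20 antigen, themselves differed by 1.57 ± 0.38 and 1.23 ± 0.37 at 5 mg/kg against vehicle (limma, adjusted p = 0.163 and 0.303). Of the 17 markers 12 were higher and 5 lower, among them Bank1, a B cell scaffold protein, at -0.54 ± 0.24 (limma, adjusted p = 0.592). The part of the markers' own differences in the adjusted H2-Ob value was not tested.

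H2-Ob minus the B cell marker mean was 0.15, 0.67, 0.33, 0.19 and 0.68 log2 units in the vehicle mice, -0.86, -0.27, -0.70, -0.70 and -0.74 at 1 mg/kg, and -0.70, -1.32, -0.53, -0.84 and -0.47 at 5 mg/kg. All 10 treated mice were below all 5 vehicle mice, and the doses overlapped each other. This difference was computed after the values were seen and has no test. On it, 1.67% of the table was lower without overlap at 5 mg/kg, 0.0948% at 1 mg/kg, and 0.0783% on all 10 treated arrays (19 probe sets), with H2-Ob the sole member. With the covariate, Cd74 differed by 0.05 ± 0.20 and Ciita 1421210_at by 0.10 ± 0.27 at 5 mg/kg against vehicle, and H2-Aa 1435290_x_at by -0.48 ± 0.24.

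Genes that act with the class II molecules were counted in lists at 5 mg/kg against vehicle, each gene by its brightest tested probe set. The peptide processing list held 13 genes, of which 2 were higher and 11 lower, with a median of -0.29 and 0 past the threshold. Ctss, the cathepsin that makes the last cuts in the invariant chain, differed by -0.89 ± 0.24 at 5 mg/kg and by -0.85 ± 0.24 at 1 mg/kg, each against vehicle (limma, adjusted p = 0.213 and 0.567). Ctsd, an aspartic protease of lysosomes, differed by -0.85 ± 0.29 (adjusted p = 0.369), and Ifi30, the thiol reductase GILT, by 0.18 ± 0.27. These proteases are also made by monocytes, whose marker mean was lower in the same mice, and the part of those cells was not tested.

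The 16 class II transcription factor genes had a median of -0.08, with 7 higher, 9 lower and 0 past the threshold. Rfx5, an RFX subunit that binds the X box, differed by -0.27 ± 0.31, and Creb1, which binds beside it, by 0.49 ± 0.19 (limma, adjusted p = 0.902 and 0.481). For Nfyb, a subunit of the Y box factor NF-Y, probe sets disagreed, at -0.40 ± 0.23 and 0.49 ± 0.26. The 10 tested interferon gamma genes had a median of -0.06 and the 10 turnover and costimulation genes -0.18, with 0 past the threshold in each. By unadjusted p under 0.05, 3 processing genes, 1 transcription factor, 0 interferon gamma genes and 1 turnover or costimulation gene were reached, beside 7.96% of the table.

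Of the class II region genes outside the members 7 were tested, and 5 of these lie between members in the gene order above. Brd2, a BET protein gene between H2-Oa and H2-DMa and the sole gene of the 7 past the threshold, rose at 5 mg/kg against vehicle by 1.26 ± 0.23 (limma, adjusted p = 0.0447), and its other probe set 1423502_at gave 1.31 ± 0.35 (adjusted p = 0.217). Its neighbour H2-DMa differed by 0.19 ± 0.26 in that comparison. Psmb9, an immunoproteasome subunit, differed by 1.21 ± 0.41 (adjusted p = 0.379) and Psmb8, another, by 0.10 ± 0.28.

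**Figure D5:**
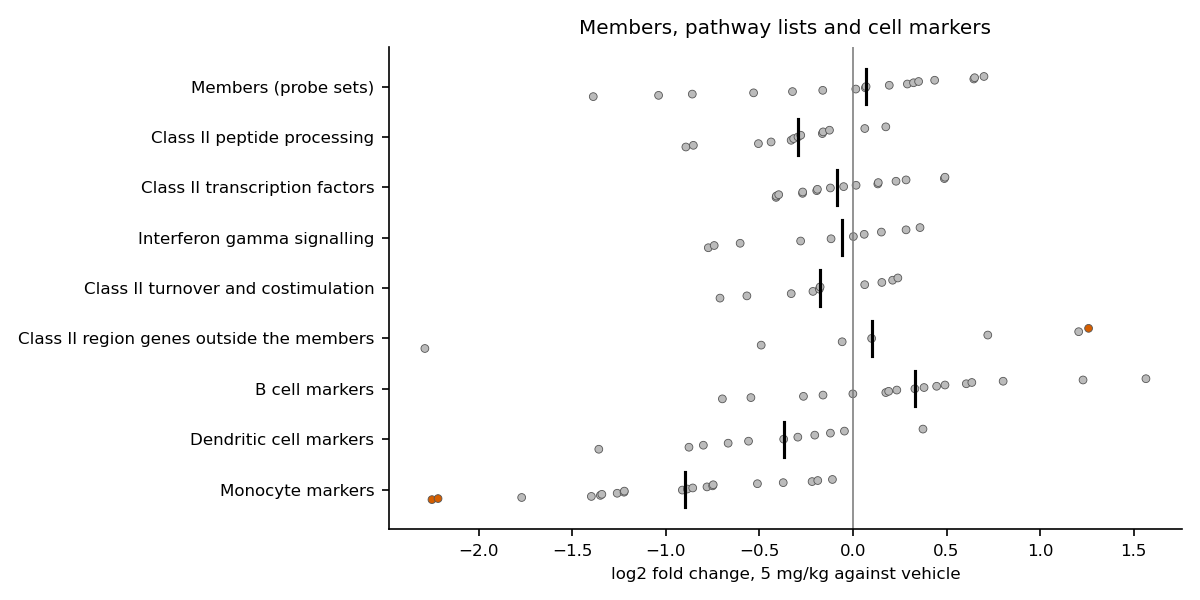
Log2 fold changes at 5 mg/kg against vehicle (x axis) of the 17 tested member probe sets and of each gene in 8 lists (rows), with list medians as vertical bars and values past an adjusted p of 0.05 in orange. Members and B cell markers lie on both sides of 0, all 20 monocyte markers lie below 0, and orange points are Brd2 in the class II region and Clec4a3 and Mpeg1 among the monocyte markers.

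All 20 tested monocyte markers were lower at 5 mg/kg than with vehicle, beside 50.8% of the table, with a median of -0.90 and 2 past the threshold. Dendritic cell markers had a median of -0.37, with 10 of 11 lower and 0 past the threshold, and B cell markers a median of 0.33, with 12 of 17 higher and 0 past the threshold. These marker lists were chosen with results of these data known and give no independent support. The member median of 0.07 lay between the B cell and monocyte medians.

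Over 19721 candidate probe sets of other genes, the 10 with values most like the mean of H2-Aa, H2-Ab1, H2-Eb1 and Cd74, by deviations from group means over 15 arrays, were Cmtm7, Dnajc9, Grk6, Malt1, Igkv8-30, Arhgef18, Pabpn1, Btla, Cd22 and 4930523C07Rik, with Pearson r of 0.93 for Cmtm7 down to 0.89 for 4930523C07Rik. Spearman rho ran from 0.76 for Cd22 to 0.88 for Cmtm7. That mean includes 1 mg/kg replicate 5, in which H2-Ab1 lay at the floor. It also includes H2-Eb1, whose r with the H2-Ab1, H2-Aa and Cd74 probe sets used was 0.01, -0.34 and -0.17. Of these genes, Cd22, also a B cell marker used here, and Btla encode inhibitory receptors of lymphocytes, and Igkv8-30 is an immunoglobulin light chain segment. The other genes of the 10 were not assigned to a cell type. Over the log2 values themselves, Grk6, Pabpn1, Arhgef18 and Igkv8-30 remained among the 10, beside Mbd2, Tapbp, Pde4b, Ptpn6, Tbpl1 and Tgfbr2. Spearman rho there was lower, from 0.54 for Arhgef18 to 0.82 for Igkv8-30. The arrays share their scaling, and these coefficients are descriptions.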

How the data were processed

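Per the labels' protocols, total RNA of whole blood was labelled with an Affymetrix 3' IVT kit. The values are intensity per probe set on a linear scale as deposited by the authors, as read from the values, some of them below 0. Not given in the sources used here are the software, the summarisation and any normalisation. Of 45101 probe sets, 64 controls were left out. Genes were named from GEO's platform annotation, which can be old: 34945 probe sets had 1 gene, 932 several and 9160 none listed.

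From the deposited intensity values, all non-control probe sets were quantile normalised, values under 16 were set to 16 and log2 was taken. Moderated two-sided tests came from limma 3.58.1 (R 4.3.3), fitted to all 15 arrays by lmFit and eBayes. P-values were adjusted over 24273 probe sets by the Benjamini-Hochberg method, with a threshold of 0.05. Errors of fold changes are standard errors. The code was tested on simulated data. Array measures were compared by exact permutation over 126 splits, and 0.00794 is the smallest p these allow. Correlations used 100000 permutations within groups. The number of arrays limits the precision of every comparison. The labels state 5 mice per group, and p-values measure the spread between these mice.

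Members and lists were chosen with earlier results of these data known. Named are all members with every probe set and, per list, up to 4 genes with the smallest p at 5 mg/kg plus Brd2, H2-Ea, Rfx5, Ctss, Ifi30, Ms4a1 and Spib where measured, and any that passed; part of these is shown, and 1 other gene of this rule is not reported here. Markers of T cells, NK cells, neutrophils, erythroid cells and platelets were also measured: at 5 mg/kg against vehicle their medians were 0.33, -0.40, -0.17, -0.18 and -0.22, with 0 past the threshold in each list. Same-numbered mice did not deviate together (r -0.27 to 0.32, over 0.1 in 3 of 15 pairs of arrays), so replicate numbers were not taken as pairs. Alternatives covered scaling, floor, filter, probe set choice, array weights, covariates, the replicate block and leaving out each mouse.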

Additional observations from a re-analysis of the deposited data

Results flagged for a closer look

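In 81 groups of 5 mice looked at, the highest or lowest mouse stood apart from the rest of its group 12 times. The cut-off flags about 1 in 20 groups that are normally distributed and independent. Floored values are not normal, and probe sets read in the same mice are not independent. The 12 therefore cannot be set against that rate. H2-Eb1 was lowest in vehicle replicate 3, at 6.88. H2-Aa was lowest in 1 mg/kg replicate 5, at 7.16 by 1438858_x_at, and H2-Ab1 1450648_s_at was at the floor of 4 in the same mouse, in which H2-Ea was the highest of its group, at 7.35. Vehicle replicate 2 was highest for H2-Aa 1435290_x_at, at 10.60, and for the T cell markers, at 7.55. The dim probe set 1418638_at, shared by H2-DMb2 and H2-DMb1, was highest in 5 mg/kg replicate 5, at 4.57, in 1 mg/kg replicate 1, at 5.31, and in vehicle replicate 2, at 5.72. H2-DMb2 probe sets 1443686_at and 1443687_x_at were highest in 5 mg/kg replicate 1, at 7.21 and 7.37. The NK cell markers were lowest in vehicle replicate 1, at 5.72. Several of these values lie at or near the floor, where values have no order.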

How the results depend on the processing

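Across 33 alternatives, 15 of them leaving out 1 mouse, the 1581 recomputed member fold changes held 1 past an adjusted p of 0.05: H2-Ob at 5 mg/kg against vehicle with the B cell marker mean as a covariate, which made the count of member probe sets past the threshold 1. Of these values 87 changed sign, each from a difference that had not passed, and the cause was not tested. The median over members at 5 mg/kg against 1 mg/kg became -0.0694 with the B cell covariate. With the monocyte covariate the member medians were 1.16 at 5 mg/kg and 0.11 at 1 mg/kg, each against vehicle. With the number of replicates as a replicate block, 0 member probe sets passed in any comparison, and over all probe sets 28 did at 5 mg/kg and 0 at 1 mg/kg, each against vehicle, and 0 between the doses; in 3 of 15 pairs of same-numbered arrays the own number gave the highest correlation, and no call of a member changed. The whole-table count at 5 mg/kg against vehicle was 33 and became 95 with array weights, 88 with a floor of 64, 73 with a floor of 32, 11 with 1 probe set per gene, 8 with H2-Ea as a covariate, 7 when the 2 vehicle arrays with the most 18S signal were left out, 4 without scaling and 0 with 18S or monocyte markers as a covariate. At 1 mg/kg against vehicle it was 2 and ranged from 0 to 11, and between the doses it was 0 and ranged to 1. The H2-Ea covariate, the removal of those vehicle arrays and the repeated B cell covariate fits were chosen after seeing the data. H2-Ob with the B cell covariate passed in 5 of 7 other settings (adjusted p 0.00517 to 0.0672).

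Log2 fold changes whose sign turned were as follows. At 5 mg/kg against vehicle, the 18S covariate gave Ciita -0.19 and -0.00837 and H2-Aa 1452431_s_at -0.10. The B cell covariate gave Ciita 1421211_a_at -0.11, H2-Aa -0.48 and -0.17, and H2-Ab1 -0.00458 and -0.52. The monocyte covariate gave H2-Eb1 0.49, H2-Ob 0.0402, H2-Ab1 1451721_a_at 1.16, Ciita 1421211_a_at -0.15, H2-DMb2 1443687_x_at 0.10 and the shared 1418638_at 0.22. The H2-Ea covariate gave Ciita 1421211_a_at -0.0898, H2-Aa -0.17 and -0.12, H2-Ab1 -0.41 and 0.00904, and H2-DMb2 1443686_at 0.23. A floor of 8 gave Ciita 1421211_a_at -0.0234, and leaving out the 2 vehicle arrays gave H2-Ab1 1451721_a_at 0.0791. At 1 mg/kg against vehicle, the 18S covariate gave 1418638_at 0.00585. The B cell covariate gave 1418638_at 0.0445, H2-DMb2 1419744_at 0.0600, H2-Ab1 1425477_x_at 0.0843 and H2-Aa 1452431_s_at 0.32. The monocyte covariate gave H2-Eb1 0.33, 1418638_at 0.20, 1449580_s_at 0.90, H2-DMb2 1419744_at 0.0292, H2-DMa 0.0947, Cd74 0.30, H2-Ab1 0.44 and 0.51, and H2-Aa 0.11 and 0.66. The H2-Ea covariate gave H2-Eb1 0.25, 1418638_at 0.0402 and H2-DMb2 0.40 and 0.29. Floors of 32 and 64 gave Ciita 1421211_a_at 0.0705 and the shared 1449580_s_at 0.12, and leaving out the 2 vehicle arrays gave 1418638_at 0.16. At 5 mg/kg against 1 mg/kg, the B cell covariate gave Ciita 1421211_a_at -0.0316, H2-Ab1 -0.0889 and -0.0694, H2-Aa -0.0469 and -0.17, H2-Ob -0.29 and H2-DMb2 1443686_at -0.62. The monocyte covariate gave H2-Eb1 0.15, 1418638_at 0.0206 and H2-DMb2 1443687_x_at 0.35, the H2-Ea covariate H2-DMb2 1443686_at -0.17, and no scaling and a floor of 32 H2-DMb2 1443687_x_at 0.18 and 0.0944.

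Leaving out 1 mouse at a time turned the sign of these. At 5 mg/kg against vehicle the ranges were -0.22 to 0.22 for H2-Aa 1435290_x_at, -0.39 to 0.19 for H2-Ab1 1451721_a_at, -0.0617 to 0.29 for Ciita 1421210_at, -0.0966 to 0.30 for Ciita 1421211_a_at, -0.0377 to 0.36 for H2-DMa and -0.32 to 0.0191 for the erythroid markers. At 1 mg/kg against vehicle they were -0.40 to 0.20 for 1418638_at, -0.45 to 0.31 for H2-Aa 1452431_s_at, -0.56 to 0.0390 for H2-Ab1 1425477_x_at, -0.80 to 0.00422 for 1449580_s_at and -0.12 to 0.0876 for the erythroid markers. At 5 mg/kg against 1 mg/kg they were -0.32 to 0.0466 for 1418638_at, -0.77 to 0.31 for H2-DMb2 1443687_x_at and -0.52 to 0.45 for H2-DMb2 1443686_at. Probe sets near the floor limit what these values can show.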
